A study of Mus musculus with 8 samples.

Results

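Complement genes were followed in macrophages of the mouse mammary gland: the 3 chains of C1q (C1qa, C1qb and C1qc), the proteases C2 and factor B (Cfb), the central component C3, the stabilising protein properdin (Cfp), and the receptors C3ar1 and C5ar1. Of the 9 listed genes, 8 had a probe set that carried their symbol and no other, out of 18193 genes with such a probe set on the array, and C3 was not analysed here. The 8 genes had 16 probe sets between them, and each gene is represented by its brightest set, taken as a mean over the arrays. All 8 passed the filter on low values, as did 13041 genes in all.

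The study measured gene expression on 8 Affymetrix arrays in 4 groups. The first was sorted from MMTV-iFGFR1 transgenic mice given dimerizer for 48 hours, the next from non-transgenic littermates given dimerizer for 48 hours, and the other 2 from transgenic mice and from littermates given it for 4 weeks. In these mice the mouse mammary tumour virus (MMTV) promoter, active in mammary epithelium, drives a form of fibroblast growth factor receptor 1. This receptor signals when the dimerizer brings its molecules together. The transgene thus acts in the epithelium, while the arrays read cells sorted as another type, with markers of epithelium also read among them. The donors were females of the inbred FVB strain, 6 weeks old at injection, and the control mice received the dimerizer too. In comparisons over time, the time of dimerizer and the age at sampling therefore cannot be told apart. Glands were digested with collagenase A and cells were sorted for Cd11b, an integrin chain of myeloid cells that is itself part of complement receptor 3. Each array carries the pooled RNA of 3 mice, amplified in 2 cycles, and each group has 2 such pools. For transgenic pool 2 at 4 weeks the description speaks of non-transgenic mice, while its title, source and genotype say transgenic, and it was used as transgenic. P-values for genes set a difference against the spread between pools, estimated over all 4 groups and drawn towards that of other genes of like signal. With 2 pools in each group that spread is poorly known.

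Complement is a set of plasma and tissue proteins that mark microbes, immune complexes and dying cells and call in phagocytes. C1q binds such targets and starts the classical pathway, whose protease C2 helps to form an enzyme that cuts C3. Factor B is the counterpart of C2 in the alternative pathway, which properdin stabilises, and the small fragments of C3 and C5 act on cells through C3ar1 and C5ar1. The liver makes most plasma complement, but C1q comes mainly from macrophages and dendritic cells.

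The signals fit a macrophage sample with other cells in it. Csf1r, the receptor for macrophage colony-stimulating factor, read 68311 to 93065 on the 8 arrays, and the macrophage antigen Adgre1 read 9842 to 14627. The 7 macrophage genes measured, of 8 listed, had a lower summed signal in both transgenic pools at both times. It was 150941 and 149087 against 191424 and 161403 in control pools at 48 hours, and 153096 and 162377 against 171946 and 164884 at 4 weeks. Of the 7, 3 had a positive and 4 a negative log2 difference at 48 hours, and 1 and 6 at 4 weeks. Their part in the complement values was not tested. Itgam, which encodes Cd11b itself, read only 46.8 to 545 on its probe set. Krt8, a keratin of luminal epithelium, read 625 to 3965, and Dcn, a matrix protein of fibroblasts, read 12024 to 31116. The lowest signal of all probe sets was 0.3. No detection calls were given, so no marker can be called absent. Arrays differed in RNA quality for which the 3' signal of beta-actin was divided by its 5' signal, a ratio that grows as transcripts are shortened. This ratio was 6.84 and 11.4 in transgenic pools against 11.3 and 13.9 in control pools at 48 hours, and 7.998 and 7.75 in transgenic pools against 7.989 and 37.0 in control pools at 4 weeks. Control pool 2 at 4 weeks stands apart by this measure. On the log2 scale the ratio was 3.06 ± 0.32 in transgenic pools and 3.88 ± 0.95 in control pools (SD, n = 4 each, exact permutation p = 0.143, two-sided).

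C1qb, C1qc and C1qa lie next to each other in that order on chromosome 4. The windows before the starts of C1qb and C1qc are shown because C1qc and 1 of the 3 C1qb probe sets varied together from array to array, as described below. They are taken from RefSeq (build GRCm38.p6, minus strand) and cover 250 bases up to the start, at chr4:136886201-136886450 for C1qb and chr4:136892915-136893164 for C1qc. Capitals mark GGAA on either strand, the core bound by ETS factors, a family that includes the myeloid regulator PU.1.
C1qb: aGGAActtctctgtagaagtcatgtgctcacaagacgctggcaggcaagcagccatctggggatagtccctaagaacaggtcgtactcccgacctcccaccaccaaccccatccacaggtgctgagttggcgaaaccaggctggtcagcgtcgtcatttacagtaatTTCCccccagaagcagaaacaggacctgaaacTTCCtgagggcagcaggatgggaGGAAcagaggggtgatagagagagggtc
C1qc: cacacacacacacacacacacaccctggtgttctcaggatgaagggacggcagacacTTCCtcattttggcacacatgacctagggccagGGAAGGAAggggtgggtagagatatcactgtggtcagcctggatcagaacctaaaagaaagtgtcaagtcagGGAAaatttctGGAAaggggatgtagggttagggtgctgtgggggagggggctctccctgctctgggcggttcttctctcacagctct
The C1qb window holds 4 such cores and the C1qc window 5. The core is common, being present in 93.4% of 32851 windows of the same length. The longer form GAGGAA, which contains the core, occurs on either strand 1 time in each of the 2 windows and in 23.3% of all windows. Windows were found for 5 of the 8 measured genes, namely C1qb, C1qc, Cfp, C3ar1 and C5ar1. The cores are matches of letters and not measured binding.

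The C1q chains read far above the array medians of 96.4 to 126.9 in every pool, with no genotype difference that passed the test. The C1qa probe set read 23669.5 and 18382.6 in transgenic pools against 22625.1 and 17466.9 in control pools at 48 hours. At 4 weeks C1qa read 24553.6 and 19946.8 in transgenic pools against 34852.6 and 15554.0 in control pools. Pools of both genotypes overlapped at both times, and the highest and the lowest of the 8 C1qa values were the 2 control pools at 4 weeks. The difference, transgenic minus control on the scale log2(signal + 30.8), was 0.07 at 48 hours (SE 0.33, 95% interval -0.66 to 0.80) and -0.07 at 4 weeks (95% interval -0.81 to 0.66). The offset of 30.8 shrinks the differences of dim probe sets.

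C1qc, the C chain of the same molecule, showed a like pattern. Its signal was 17817.5 and 12698.3 in transgenic pools against 15062.4 and 11592.6 in control pools at 48 hours, and 17292.8 and 11913.2 in transgenic pools against 24194.0 and 9661.7 in control pools at 4 weeks. Again the groups overlapped at both times, with the 2 control pools at 4 weeks at the ends of the range. Its log2 difference was 0.19 at 48 hours (95% interval -0.66 to 1.03) and -0.09 at 4 weeks (95% interval -0.94 to 0.76).

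C1qb had 3 probe sets. The brightest, 1434366_x_at, read 49383.9 and 37231.0 in transgenic pools against 44591.2 and 36975.2 in control pools at 48 hours. The 4-week values of this set were 33693.8 and 42218.6 in transgenic pools against 50229.2 and 41973.3 in control pools. These values overlapped at both times and spanned a narrower range than the other chains, with log2 differences of 0.08 (95% interval -0.37 to 0.53) and -0.28 (95% interval -0.74 to 0.17). The set 1417063_at behaved like C1qa and C1qc instead, at 25085.6 and 17392.1 in transgenic pools against 34830.5 and 12960.1 in control pools at 4 weeks. On the remaining set, 1437726_x_at, the 4-week transgenic pools read 36205.3 and 38944.4, against 47897.2 and 43122.2 in control pools, so that the groups did not overlap there, with a log2 difference of -0.28 (95% interval -0.79 to 0.24).

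**Figure D1:**
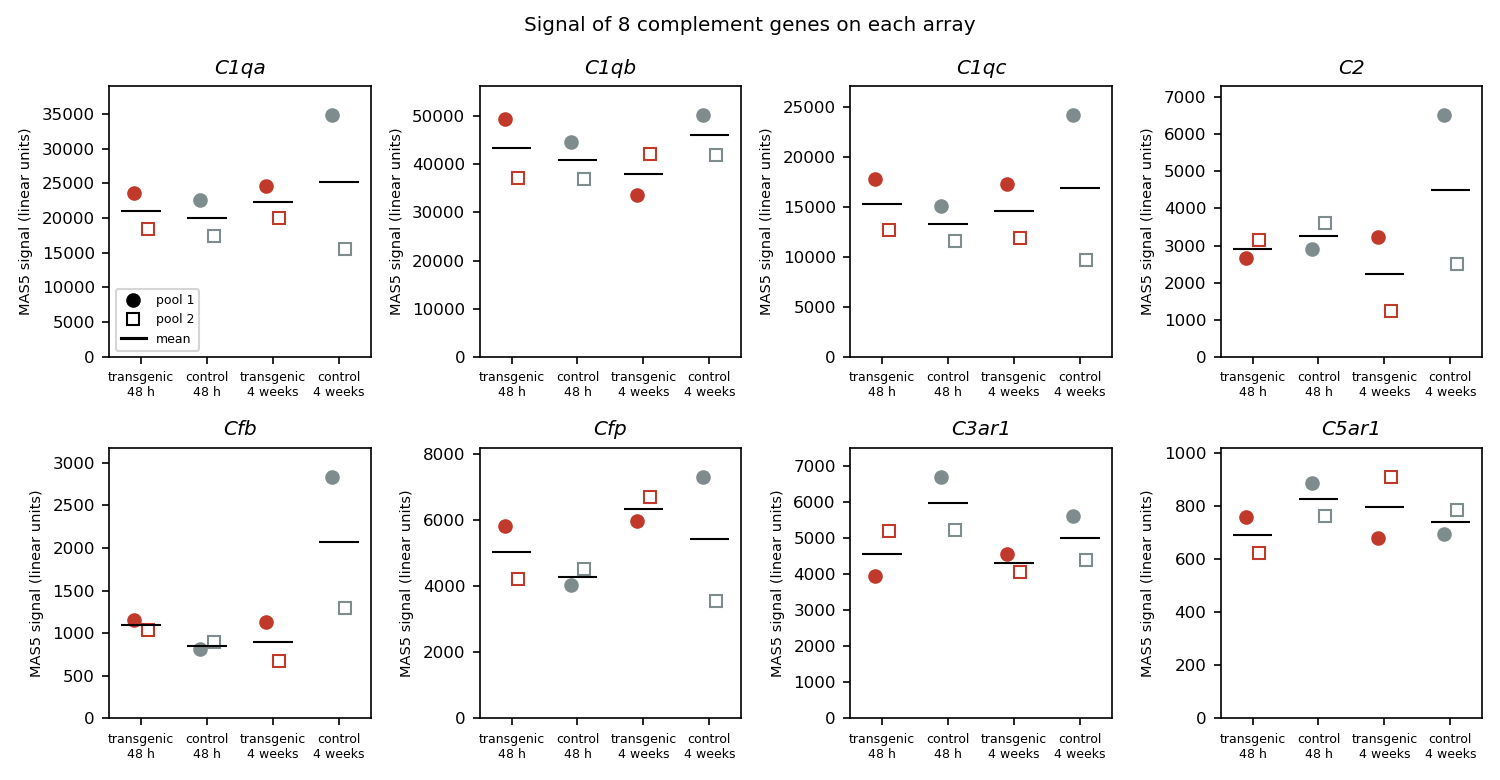
MAS5 signal (linear units, each axis from 0) of the probe set used for each of 8 complement genes, by genotype and time of dimerizer. Circles are pool 1, squares pool 2 and bars the mean of 2 pools. For C1qa, C1qb, C1qc, C2, Cfb and Cfp control pool 1 at 4 weeks is the highest point, and for C1qa, C1qc and Cfp control pool 2 at 4 weeks is the lowest.

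For C1qa and C1qc the 2 pools of one group differed by more than the means of the 2 genotypes did. The ratio of pool 1 to pool 2 for C1qa was 1.29 in transgenic and 1.30 in control pools at 48 hours, and 1.23 in transgenic and 2.24 in control pools at 4 weeks. For C1qc these ratios were 1.40 and 1.30 at 48 hours and 1.45 and 2.50 at 4 weeks, in the same order of genotypes. Pool 1 was higher than pool 2 in 4 of 4 groups for both chains and for the C1qb set 1417063_at. The pool numbers carry no meaning that the labels state.

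Across the 8 arrays, C1qa and C1qc had a Pearson r of 0.98, C1qc and the C1qb set 1417063_at one of 0.99, and C1qa and that set one of 0.96. The other C1qb sets followed 1417063_at loosely, with r of 0.39 for 1434366_x_at and 0.35 for 1437726_x_at, and had r of 0.86 with each other. All of these share the same 8 arrays and their RNA. The log2 beta-actin ratio had r of -0.69 with C1qa, -0.71 with C1qc and -0.75 with the C1qb set 1417063_at, but -0.18 and 0.10 with the C1qb sets 1434366_x_at and 1437726_x_at, and its part in the variation was not tested. Nor was the part of the 9 resident macrophage markers measured here of 9 listed, among them Mrc1 and Lyve1. Their summed signal was 227634 and 211894 in transgenic pools against 191791 and 191599 in control pools at 48 hours, and 221950 and 194524 in transgenic pools against 280040 and 183938 in control pools at 4 weeks. Like C1qa and C1qc, this sum was highest in control pool 1 and lowest in control pool 2 at 4 weeks. Unlike them, it was higher in both transgenic pools at 48 hours. Of the 9 markers, 8 had a positive and 1 a negative log2 difference at 48 hours, and 1 and 8 at 4 weeks. The genes closest to C1qa over the 8 arrays were Sat1 and Jagn1 (r of 0.96 each), to C1qc Psmb10 (0.98) and Commd3 (0.97), and to the C1qb set used Ift22 (0.95) and Tmem121b (0.92).

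**Figure D2:**
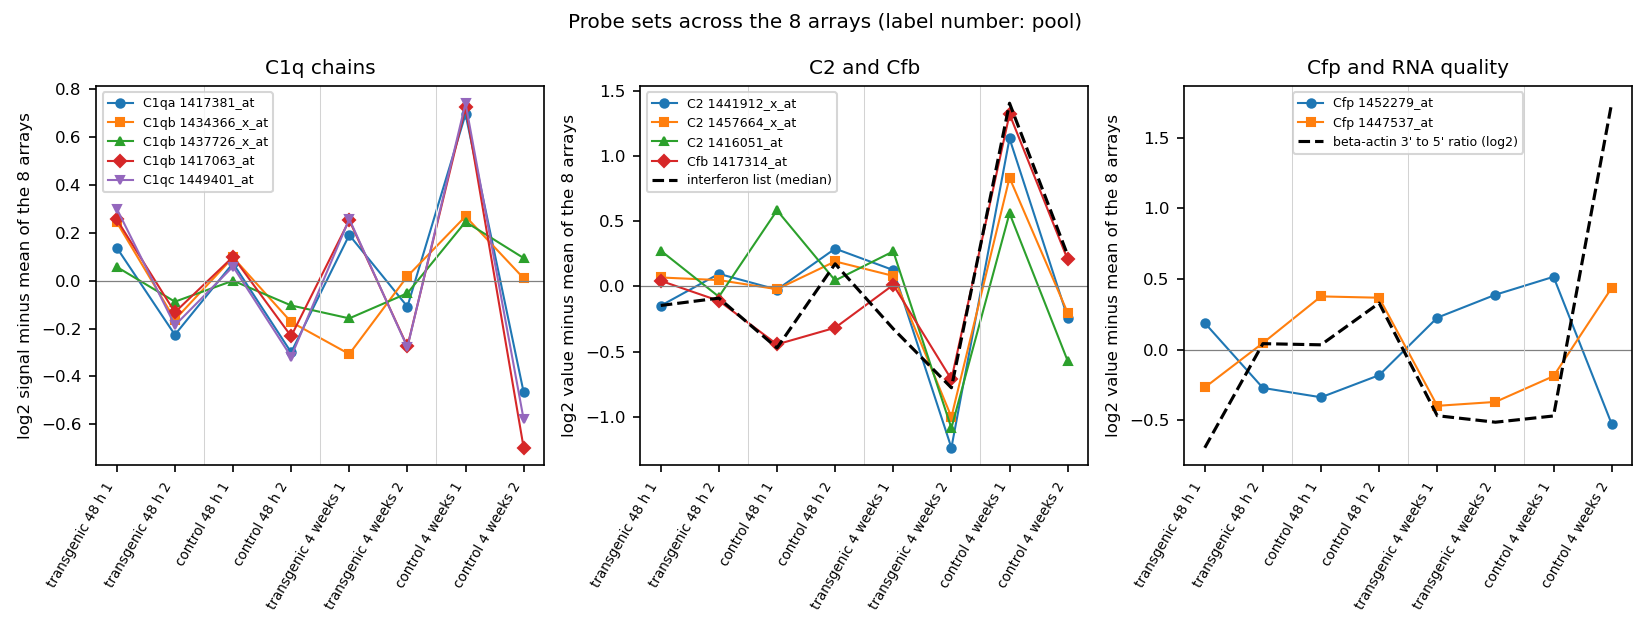
Log2 value of each probe set minus its mean over the 8 arrays, for the C1q chains, for C2 and Cfb with the median of the interferon list (dashed), and for Cfp with the log2 beta-actin 3' to 5' ratio (dashed). Arrays run along the x axis, and the lines join arrays only to make a probe set easy to follow. C1qa, C1qc and 1417063_at run together, Cfb and C2 peak in control pool 1 at 4 weeks, except the C2 set 1416051_at, and the 2 Cfp sets mirror each other.

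Of the proteases, Cfb had estimated genotype differences of opposite sign at the 2 times, and that at 4 weeks was the largest in size of the 8 probe sets used. At 48 hours Cfb read 1152.5 and 1033.2 in transgenic pools against 813.3 and 891.3 in control pools. At 4 weeks it read 1127.1 and 670.0 in transgenic pools against 2837.9 and 1294.7 in control pools. Both transgenic pools lay above both control pools at 48 hours and below both at 4 weeks, and control pool 1 at 4 weeks was far above the other 7 values. Of all genes tested, 3.21% had this pattern of higher values at 48 hours and lower values at 4 weeks without overlap. The log2 difference was 0.35 at 48 hours (SE 0.38, 95% interval -0.49 to 1.18, limma adjusted p = 0.976). At 4 weeks it was -1.11 (SE 0.38, 95% interval -1.95 to -0.28, limma unadjusted p = 0.014, adjusted p = 0.965), which did not pass the threshold of 0.05 after adjustment over 13041 genes.

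The 4-week difference minus the 48-hour difference for Cfb was -1.46 on the log2 scale (SE 0.53, 95% interval -2.64 to -0.28, limma unadjusted p = 0.020, adjusted p = 0.988). By the same fit, control pools at 4 weeks against 48 hours differed by 1.14 (95% interval 0.31 to 1.98, limma adjusted p = 0.648), and transgenic pools by -0.32 (95% interval -1.15 to 0.52). The control difference over time was thus the larger of the 2, as seen in the plot of signal by pool. The size of the Cfb genotype difference at 4 weeks depended on single pools. It was -0.56 without control pool 1 and -1.67 without control pool 2. Without transgenic pool 1 it was -1.48. Without transgenic pool 2, whose description speaks of non-transgenic mice and which had the lowest Cfb value, it was -0.75.

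C2, next to Cfb on chromosome 17, had its lowest value in a transgenic and its highest in a control pool at 4 weeks. On the set used, 1441912_x_at, C2 read 2662.2 and 3159.0 in transgenic pools against 2902.6 and 3615.8 in control pools at 48 hours. The 4-week values of C2 were 3223.4 and 1235.1 in transgenic pools against 6517.8 and 2497.7 in control pools. The groups overlapped at both times, since transgenic pool 1 at 4 weeks lay above control pool 2. The log2 difference was -0.16 at 48 hours (95% interval -1.23 to 0.91) and -1.004 at 4 weeks (SE 0.48, 95% interval -2.07 to 0.07, limma unadjusted p = 0.063, adjusted p = 0.973). Every pool at 4 weeks moved this value: it was -0.32 without control pool 1 and also without transgenic pool 2, -1.69 without control pool 2 and -1.68 without transgenic pool 1. The other C2 sets gave -0.78 and -0.40 at 4 weeks and -0.03 and -0.22 at 48 hours for 1457664_x_at and 1416051_at in that order, all negative like the set used.

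The C2 sets 1441912_x_at and 1457664_x_at had r of 0.99 with each other over the 8 arrays, and Cfb had r of 0.80 with the C2 set used but 0.47 with 1416051_at. The genes whose log2 values ran closest to Cfb were Gm11772 (r of 0.99) and AW112010 (0.98), and to C2 they were Tmem140 (0.98) and Gm20559 (0.97). The C2 groups overlapped at 4 weeks, whereas the summed signal of interferon-response genes was lower in both transgenic pools then, as Cfb was. These interferon-response genes did not share the 48-hour order of Cfb. For the 15 such genes measured, of 18 listed, the summed signal was 32539 and 38937 in transgenic pools against 31020 and 45874 in control pools at 48 hours. At 4 weeks that sum was 32484 and 28167 in transgenic pools against 103352 and 48892 in control pools. At 48 hours that sum was highest in control pool 2, where Cfb was below both transgenic pools. Over the 8 arrays it was highest, like Cfb and C2 on the set used, in control pool 1 at 4 weeks and lowest, like both genes, in transgenic pool 2 at 4 weeks. At 4 weeks 14 of the 15 had a negative log2 difference, with a median of -1.21 against -0.02 over all genes. Their part in the C2 and Cfb values was not tested.

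Properdin, which macrophages and neutrophils secrete, gave opposite differences on its 2 probe sets. The Cfp set with the higher mean, 1452279_at, read 5834.7 and 4234.9 in transgenic pools against 4043.4 and 4510.0 in control pools at 48 hours. At 4 weeks it read 5989.6 and 6706.4 in transgenic pools against 7326.1 and 3545.2 in control pools. These values overlapped at both times, and the log2 difference was 0.22 (95% interval -0.49 to 0.92) at 48 hours and 0.31 (95% interval -0.39 to 1.02) at 4 weeks.

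The other Cfp set, 1447537_at, read 1252.8 and 1565.3 in transgenic pools against 1975.4 and 1962.5 in control pools at 48 hours, and 1142.2 and 1164.9 in transgenic pools against 1325.9 and 2060.7 in control pools at 4 weeks. On this set both transgenic pools lay below both control pools at both times. The same held for the summed signal of 12 neutrophil markers, of 14 listed, which was 10832 and 11300 in transgenic pools against 15883 and 17910 in control pools at 48 hours. At 4 weeks that sum was 9328 and 9296 in transgenic pools against 12670 and 24666 in control pools. Of 11 neutrophil markers tested, 8 had a negative log2 difference at 48 hours and 11 at 4 weeks, and their part in the Cfp values was not tested. Its log2 difference was -0.48 at 48 hours (SE 0.25, limma unadjusted p = 0.083, adjusted p = 0.966) and -0.51 at 4 weeks (limma unadjusted p = 0.069, adjusted p = 0.968). Over all genes tested, 2.76% had both transgenic pools below both control pools at both times. The 2 Cfp sets had r of -0.87 with each other over the 8 arrays, and r of -0.81 (1452279_at) and 0.80 (1447537_at) with the log2 beta-actin ratio, whose part was not tested. The genes closest to the set used were Tmco1 (r of 0.99) and Lgmn (0.98). Once the log2 beta-actin ratio entered the fit, the difference of the set used was -0.02 at 48 hours (limma adjusted p = 0.999) and -0.22 at 4 weeks (limma adjusted p = 0.961). Without control pool 2 at 4 weeks, which had the highest ratio, the 4-week difference was -0.21. The set 1447537_at was not fitted with the ratio.

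Of the receptors, C3ar1, which binds the C3 fragment C3a, had a negative genotype difference at 48 hours on each of its 3 probe sets. The set used, 1419483_at, read 3959.1 and 5193.9 in transgenic pools against 6721.3 and 5232.5 in control pools. The 4-week values were 4556.7 and 4065.5 in transgenic pools against 5624.1 and 4408.0 in control pools. The groups did not overlap at 48 hours, by a narrow margin between pools 2 of both genotypes, and overlapped at 4 weeks. The log2 difference was -0.38 at 48 hours (SE 0.24, 95% interval -0.91 to 0.14, limma adjusted p = 0.976) and -0.21 at 4 weeks (95% interval -0.74 to 0.32).

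The C3ar1 set 1442082_at had the larger difference at 48 hours, with 4042.0 and 3326.1 in transgenic pools against 7168.3 and 4881.4 in control pools. This is a log2 difference of -0.69 (SE 0.26, limma unadjusted p = 0.023, adjusted p = 0.966), and the groups did not overlap. At 4 weeks this set read 4089.7 and 4638.8 in transgenic pools against 4451.1 and 2989.5 in control pools, a log2 difference of 0.25. The set 1419482_at gave -0.45 at 48 hours and 0.40 at 4 weeks. The 3 sets thus ran in one direction at 48 hours and in both directions at 4 weeks. Among 13041 genes, the closest to C3ar1 over the 8 arrays were Fcgr4, an activating Fc receptor of myeloid cells (r of 0.98), and Dpf3 (r of 0.94).

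C5ar1, the receptor for the C5 fragment C5a, read 758.8 and 623.1 in transgenic pools against 887.5 and 763.6 in control pools at 48 hours on the set used, 1439902_at. At 4 weeks it read 681.2 and 911.1 in transgenic pools against 695.6 and 785.7 in control pools. Transgenic pools lay below control pools at 48 hours, by a narrow margin, and on both sides of them at 4 weeks. The log2 difference was -0.25 (95% interval -0.86 to 0.36) at 48 hours and 0.09 (95% interval -0.52 to 0.70) at 4 weeks.

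The dimmer C5ar1 set 1422190_at read 312.5 and 198.2 in transgenic pools against 113.9 and 233.3 in control pools at 48 hours, and 187.4 and 276.9 in transgenic pools against 116.4 and 28.1 in control pools at 4 weeks. On this set transgenic pools lay above control pools at 4 weeks, with a log2 difference of 1.48 (SE 0.58, 95% interval 0.21 to 2.74, limma unadjusted p = 0.026, adjusted p = 0.951), which did not pass. Its lowest value, 28.1, was in control pool 2 at 4 weeks, and its r with the log2 beta-actin ratio was -0.81, whose part was not tested. The 2 C5ar1 sets had r of -0.04 with each other, and the genes closest to the set used were Rtn1 (r of 0.97) and Pim1 (0.95).

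**Figure D3:**
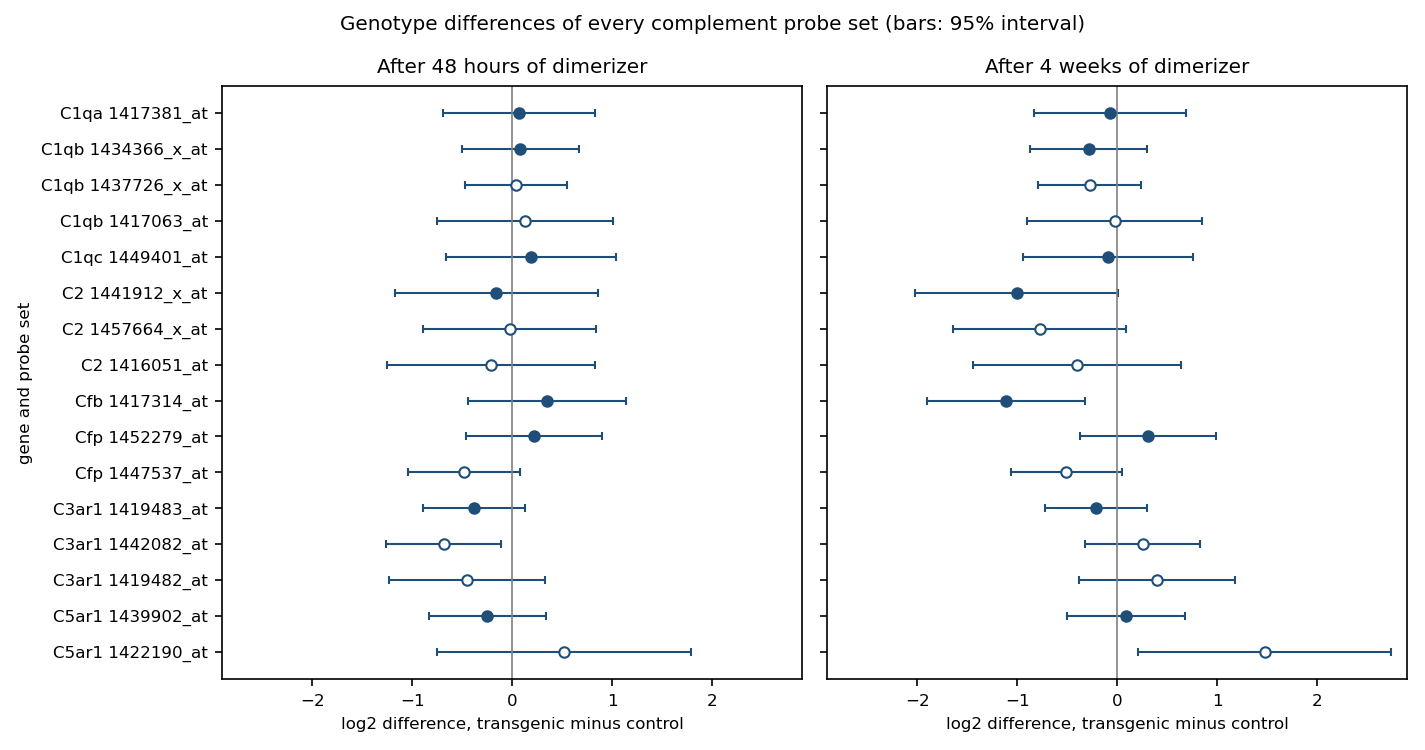
Log2 difference, transgenic minus control, of all 16 probe sets of the 8 complement genes at 48 hours and at 4 weeks of dimerizer, from a fit over every probe set with 1 symbol, so that intervals differ a little from those in the text. Points are estimates, filled for the set used and open for other sets, and bars are 95% intervals. Most intervals span 0, and those that do not are C3ar1 1442082_at at 48 hours and Cfb 1417314_at and C5ar1 1422190_at at 4 weeks.

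Counted over the 8 genes, none passed limma's test with Benjamini-Hochberg adjustment at either time. At 48 hours 0 of 8 passed (0% of all genes), 5 differences were positive and 3 negative, and the median was 0.07 against 0.04 over all genes. Pools of the 2 genotypes did not overlap for 3 of the 8 (Cfb higher, C3ar1 and C5ar1 lower), where 35.0% of all genes did not overlap, 18.9% being higher and 16.1% lower. At an unadjusted p under 0.05, 0 of 8 passed at 48 hours, against 4.07% of all genes. At 4 weeks 0 of 8 passed (0% of all genes), 2 differences were positive and 6 negative, and the median was -0.15 against -0.02. Cfb did not overlap and was lower (31.9% of all genes did not overlap, 17.2% being lower), and at an unadjusted p under 0.05 it was the 1 of 8 that passed, against 5.08% of all genes. Read against these shares, the counts give no result about the 8 genes.

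For the difference between the 2 genotype differences, 0 of 8 passed after adjustment (0% of all genes), and Cfb had an unadjusted p under 0.05 (4.74% of all genes). The other 7 genes lay between -0.85 and 0.34 on the log2 scale. From 48 hours to 4 weeks, 0 of 8 passed in transgenic pools (0% of all genes), with log2 differences of -0.53 for C2 to 0.35 for Cfp, and 0 of 8 in control pools (0.00767% of all genes, which is 1 gene). Aside from Cfb, control pools differed over time by -0.25 for C3ar1 to 0.32 for C2. Over both times, C2 had a log2 difference of -0.58 and C3ar1 one of -0.30, and 0 of 8 passed (0% of all genes).

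Other complement genes were taken from 4 lists of 48 genes, of which 38 had a probe set and 27 passed the filter, the other 11 reading 3.2 to 135.5 on all arrays. At 48 hours 20 of the 27 log2 differences were positive and 7 negative, with a median of 0.24 against 0.04 over all genes, and 0 passed after adjustment. Pools did not overlap for 7 that were higher (18.9% of all genes) and 2 that were lower (16.1% of all genes) in transgenic pools. At 4 weeks 12 were positive and 15 negative, with a median of -0.12, 0 passed, and 4 higher (14.7% of all genes) and 2 lower (17.2% of all genes) did not overlap. At an unadjusted p under 0.05, 2 genes were higher at 48 hours (2.07% of all genes) and 1 at 4 weeks (1.96% of all genes).

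Of the classical and lectin pathway, all 9 tested genes had a positive log2 difference at 48 hours, from 0.02 for Masp2 upward. At 4 weeks 3 were positive and 6 negative. Masp1, Masp2, Colec11, Fcnb and Mbl1 were dim, at 12.1 to 261.7, against array medians of 96.4 to 126.9. The lowest values of Masp2, Colec11, Fcnb and Mbl1 lay below the offset of 30.8. For all of these dim genes the groups overlapped at 48 hours and the SEs were 0.52 to 0.90, so their direction is poorly known. C1s1, a protease of the C1 complex, read 749.3 and 578.1 in transgenic pools against 194.3 and 425.4 in control pools at 48 hours, and 931.9 and 939.8 in transgenic pools against 858.3 and 588.9 in control pools at 4 weeks. Transgenic pools lay above control pools at both times, with a log2 difference of 1.10 at 48 hours (SE 0.37, limma unadjusted p = 0.013, adjusted p = 0.976) and 0.38 at 4 weeks. Its partner protease C1ra had 0.30 at 48 hours. The lectin pathway's Fcna, a ficolin of macrophages, had the highest signal of the list, at 18778.0 and 12682.9 in transgenic pools against 15577.9 and 13544.4 in control pools at 48 hours. At 4 weeks Fcna read 19209.5 and 9748.7 in transgenic pools against 32624.0 and 14014.1 in control pools, overlapping as the C1q chains did, with a log2 difference of -0.64. The scavenger receptor Colec12 had 0.47 at 48 hours and -0.40 at 4 weeks.

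Among regulators, Serping1, the inhibitor of the C1 proteases, read 5239.4 and 4323.2 in transgenic pools against 2215.2 and 3235.6 in control pools at 48 hours. The 4-week values of Serping1 were 7307.8 and 4162.5 in transgenic pools against 8606.1 and 5699.0 in control pools. Transgenic pools lay above control pools at 48 hours and overlapped them at 4 weeks, with log2 differences of 0.82 (SE 0.32, limma unadjusted p = 0.028, adjusted p = 0.976) and -0.34. Clu, which blocks the membrane attack complex, had 0.78 at 48 hours and -0.25 at 4 weeks. The mouse regulator Cr1l, which stops C3 convertases on cell surfaces, was even over the arrays at 4183 to 5057, with log2 differences of -0.005 and -0.15.

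The summed signal of luminal epithelial markers was also higher in both transgenic pools at 48 hours, as C1s1 and Serping1 were, and their part was not tested. Of 9 such markers tested, 7 had a positive log2 difference at 48 hours and 2 a negative one. At 4 weeks 3 were positive and 6 negative. The 10 luminal epithelial genes measured, of 12 listed, summed to 11890 and 12448 in transgenic pools against 4040 and 4263 in control pools at 48 hours, and to 11359 and 6597 in transgenic pools against 13732 and 9098 in control pools at 4 weeks. The 9 fibroblast genes, of 9 listed, summed to 74397 and 78492 in transgenic pools against 39687 and 88399 in control pools at 48 hours. At 48 hours this sum overlapped between genotypes, since control pool 2 was the highest of these 4 arrays and control pool 1 the lowest. Control pool 1 at 48 hours was also the lowest of the 8 arrays for C1s1 and Serping1. Of the 9 fibroblast genes, 8 had a positive log2 difference at 48 hours and 1 a negative one, with a median of 0.37. At 4 weeks they summed to 87801 and 68402 in transgenic pools against 79061 and 59740 in control pools. There 6 were positive and 3 negative. The part of fibroblasts was not tested. In a pooled sample, a change in the number of cells of a type and a change in RNA per cell cannot be told apart.

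Of the receptors and C1q binding proteins, Itgax, the Cd11c chain of complement receptor 4, had genotype differences of opposite sign at the 2 times. Itgax read 813.5 and 840.4 in transgenic pools against 1353.8 and 928.1 in control pools at 48 hours, and 1443.4 and 2164.0 in transgenic pools against 474.2 and 1205.0 in control pools at 4 weeks. Transgenic pools lay below control pools at 48 hours and above them at 4 weeks, with log2 differences of -0.43 and 1.19 (SE 0.41, limma unadjusted p = 0.015, adjusted p = 0.965 at 4 weeks). The difference between these was 1.61 (SE 0.58, limma adjusted p = 0.988). Itgax is also a marker of dendritic cells, and 7 other dendritic markers, of 8 listed, summed to 3147 and 2207 in transgenic pools against 3768 and 2928 in control pools at 48 hours. At 4 weeks they summed to 3870 and 5245 in transgenic pools against 2546 and 3276 in control pools. The sums overlapped at 48 hours and were higher in both transgenic pools at 4 weeks. Of the 7, 6 had a negative log2 difference at 48 hours and 4 at 4 weeks, Cd209a and Ccr7 being positive at 0.95 each, and their part was not tested. Itgb2, the chain that Itgax and Itgam share, read 11741 to 14912 over the arrays, with log2 differences of -0.12 and 0.14. The C1q binding proteins C1qbp and Calr had 0.24 and 0.24 at 48 hours and 0.14 and -0.28 at 4 weeks, and Cd93 had -0.17 and 0.34. Of the terminal components, C6 had log2 differences of 0.06 at 48 hours and -0.28 at 4 weeks, and Hc, which encodes C5 and carries an inactivating deletion in FVB mice, read 117 to 265 on all arrays.

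**Figure D4:**
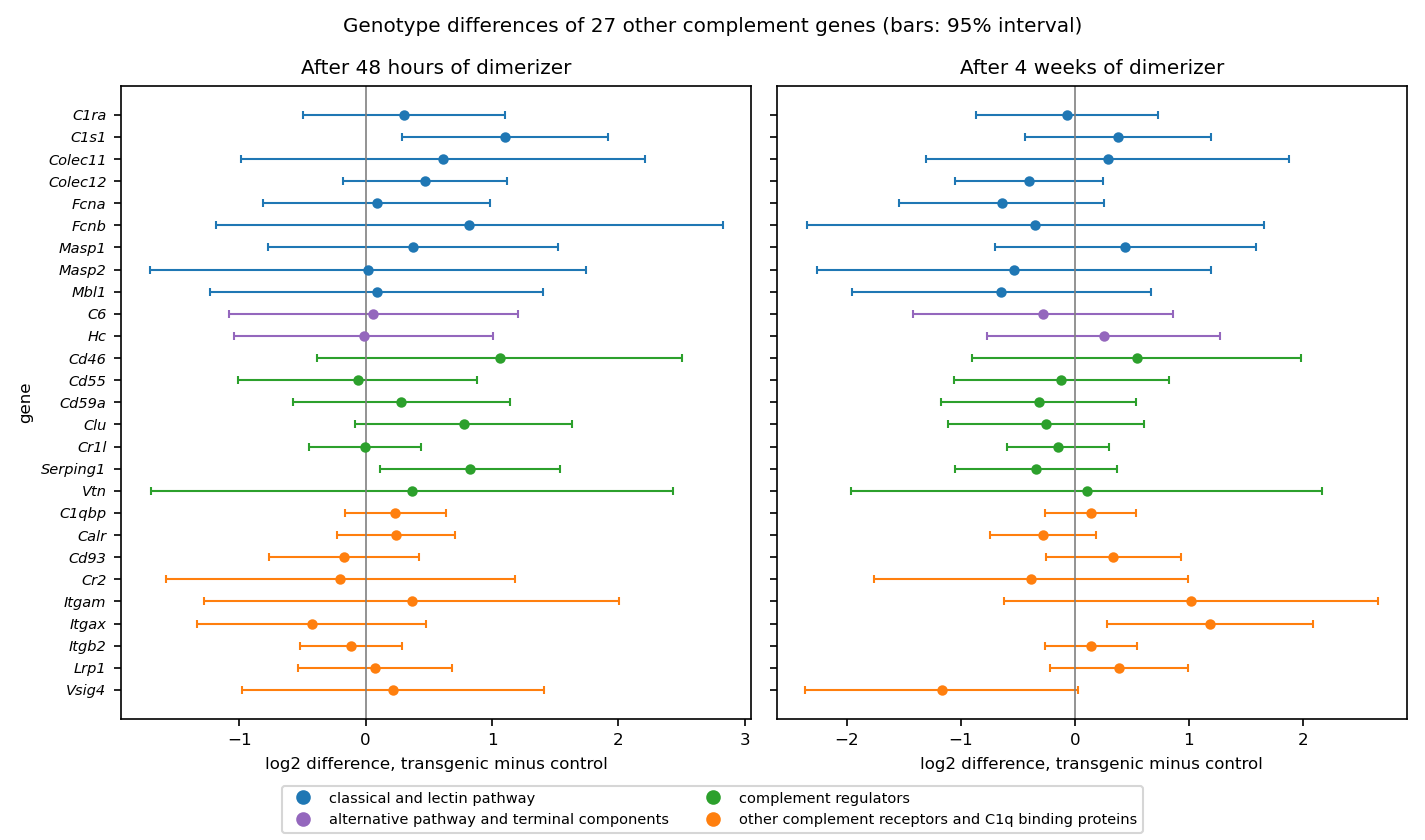
Log2 difference, transgenic minus control, of 27 other complement genes at 48 hours and at 4 weeks of dimerizer. Points are estimates, bars are 95% intervals and colours give the list. The intervals of C1s1 and Serping1 lie above 0 at 48 hours and that of Itgax above 0 at 4 weeks, while the others span 0.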

How the data were processed

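Signal intensity per probe set was deposited by the authors, and MAS5 is the only tool in the submitters' processing notes, without a version. The intensity values are linear, and the mean without the lowest and highest 2% was 500.0 on every array. No detection calls were given, the number of arrays limits the precision, and for arrays no read depth applies. Of 45101 probe sets, 34945 carried 1 gene symbol and were used. C3 was not analysed here.

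For each gene the probe set with the highest mean signal was tested if 2 or more arrays had it above their own median signal (13041 genes). Values were log2(signal + 30.8), the offset being the 25th percentile of all values, and SDs are of 2 pools unless stated. The 4 group means were fitted with limma 3.58.1 in R 4.3.3 (eBayes with trend, residual df 4, median prior df 6.21), with two-sided tests and Benjamini-Hochberg adjustment across all 13041 genes. Other probe sets of a gene come from the same fit over all 34945. The genotype difference over both times had time as a covariate. Pearson r values are descriptions over 8 arrays with no test. RNA quality was compared between 4 transgenic and 4 control arrays by exact permutation, which can give no p below 0.0286.

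Named genes were all members with every probe set, other complement genes that did not overlap between genotypes with an unadjusted p under 0.05, up to 4 per list with the highest signal, and for each member the 2 genes with the highest r, of which some are not printed. Members and lists were chosen with earlier results of these data known. Alternatives were quantile normalization, other offsets and filters, all probe sets, no trend, array weights, a block for pool number, the 4 arrays compared alone, the actin ratio as a covariate, other probe sets and leaving out each pool. Pool numbers were not taken as pairs, since deviations of same-numbered pools had r of -0.09 to 0.13. On simulated data of the 48-hour comparison (13041 genes, 200 changed, 5 runs) the fit found 6.27% of the genes set to change 2-fold, 57.9% at 4-fold and 79.1% at 8-fold, and made 4.4 false calls per run on average. Promoters came from RefSeq, and plots were made with matplotlib 3.10.9 under Python 3.11.15.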

Additional observations from a re-analysis of the deposited data

Results flagged for a closer look

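The genotype difference of Cfb changed direction between the times: both transgenic pools lay above both control pools at 48 hours and below both at 4 weeks, and the 4-week difference minus the 48-hour difference was -1.46 on the log2 scale (limma adjusted p = 0.988). That test did not pass. Of all genes tested, 3.21% had pools that did not overlap and were higher at 48 hours and lower at 4 weeks. Without control pool 1 at 4 weeks the Cfb value was -0.90, and without control pool 2 at 4 weeks it was -2.02. Without transgenic pool 1 at 4 weeks it was -1.82, and without transgenic pool 2 at 4 weeks it was -1.10.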

How the results depend on the processing

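Of 304 recomputed values of 19 differences of the 8 genes, 280 kept their direction, 24 reversed and 0 passed the test. The other filters, all probe sets, no trend, array weights, the pool block and the 4 arrays alone leave the log2 difference itself unchanged. Those settings bear only on the test, so their values kept their direction by construction. With a covariate for the actin ratio, the 48-hour log2 difference was -0.20 for C1qa, -0.010 for C1qb, -0.12 for C1qc, -0.021 for Cfp, -0.41 for C2 and 0.12 for Cfb. The 4-week one was -0.22 for Cfp, -0.67 for C1qa, -0.48 for C1qb, -0.78 for C1qc, -1.55 for C2, -1.63 for Cfb and -0.33 for C3ar1, the last 6 in their direction without it. This ratio was 37.0 in control pool 2 at 4 weeks and at most 13.9 on the other arrays, so 1 array weighs heavily in the covariate. Without that pool the 4-week differences were close to those with the covariate. They were -0.21 for Cfp, -0.65 for C1qa, -0.41 for C1qb, -0.75 for C1qc, -1.69 for C2, -1.67 for Cfb and -0.38 for C3ar1. Other probe sets reversed Cfp (1447537_at, -0.48 at 48 hours and -0.51 at 4 weeks), C5ar1 at 48 hours (1422190_at, 0.52) and C3ar1 at 4 weeks (1442082_at, 0.25, and 1419482_at, 0.40). With each pool left out in turn the 48-hour differences ranged from -0.12 to 0.26 for C1qa, -0.13 to 0.28 for C1qb, -0.057 to 0.43 for C1qc and -0.012 to 0.45 for Cfp. The 4-week differences then ranged from -0.65 to 0.51 for C1qa, -0.75 to 0.57 for C1qc, -0.11 to 0.29 for C5ar1 and -0.21 to 0.83 for Cfp, and that of Cfb over time in transgenic pools from -0.68 to 0.045. The causes were not tested.

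Over all genes, the 1 call over time in control pools (F5, coagulation factor V, named after its values were seen) became 0 with the 75th percentile filter, no trend, array weights or the 4 arrays compared alone, 4 with the pool number as a replicate block, 7 with the actin covariate and 0 to 7 with a pool left out. Genotype calls at 4 weeks became 2 with the block, 1 with the 4 arrays alone and 0 to 1 with a pool left out; those at 48 hours became 1 with the 4 arrays alone and 0 to 1 with a pool left out. The difference between the times, transgenic pools over time and both times together gave 0 to 1 with a pool left out. With 2 pools in each group few simulated 2-fold changes passed, so differences of that size could mostly not be detected.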
